A study of Mus musculus with 4 samples.

Results

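Transcripts of 9 transcription factors of the KLF, EGR and MYC families (Klf2, Klf3, Klf4, Klf6, Klf10, Egr1, Egr2, Egr3 and Myc) were followed in mouse peritoneal macrophages. The genes were chosen by name, through the NCBI mouse gene identifiers of the deposited tables, and are 9 of the 16403 genes listed there. Peritoneal cells were elicited by injecting 4% thioglycolate into C57BL/6 mice 6 to 8 weeks old and were collected 4 days later. They adhered for 4 h and were starved in 0.5% serum, then were left untreated or received IL-4 at 20 ng/mL for 6 h. The mice were wild-type littermates or carried floxed Trim24 alleles with LysM-Cre, which deletes Trim24 (also named TIF1a) in myeloid cells, and the latter are called KO here. LysM-Cre is driven from the lysozyme M gene Lyz2, so deletion is expected in macrophages and granulocytes and may be incomplete. Whether the wild-type mice carried Cre or a floxed allele, and how many mice were pooled, is not given in the sources used here.

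Each of the 4 groups (wild-type untreated, wild-type IL-4, KO untreated, KO IL-4) is 1 library, so no value below has a replicate check. Each pair test compares 2 libraries and not the conditions, and its error covers counting only. The libraries held between 11026033 and 11250099 expected reads, and a count of 3 reads, taken as the detection floor, equals between 0.267 and 0.272 CPM (counts scaled by library total). Trim24 was listed at 2.55 FPKM (fragments scaled by transcript length and library size) in wild-type untreated, 1.48 in wild-type IL-4, 0.06 in KO untreated and 0.14 in KO IL-4 cells, so the KO libraries held the low values. All 10 macrophage markers examined were listed in every library, among them Adgre1 at 68.5 to 97.7 FPKM and Csf1r at 135 to 285 FPKM. Their summed level was between 8391 and 14933 FPKM and was dominated by Lyz2, which was 5193 and 4761 FPKM in the KO libraries against 11289 and 10811 in wild-type. The other 9 markers summed to between 3630 and 4034 FPKM, and the part of the Lyz2 difference in the genotype comparisons was not tested. In bulk RNA, fewer cells of a type and less RNA per cell cannot be told apart. Log2 ratios leaned with transcript length, with a Spearman's rho of -0.372 across genes averaging 1 FPKM or more for IL-4 in wild-type, -0.109 for IL-4 in the KO, 0.129 for KO against wild-type untreated and 0.518 with IL-4. Calls were therefore also made after a smooth trend over length was removed, and none of the pair calls for the 9 genes changed.

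The KLF proteins bind GC-rich and CACCC elements through a conserved set of zinc fingers. Some, such as Klf2 and Klf4, are known for restraining inflammatory gene expression in myeloid cells, and Klf4 is known as a partner of STAT6 in alternative (M2) activation. The EGR factors are zinc finger proteins of the immediate early class, whose genes respond within minutes to many stimuli through serum response factor at CArG boxes, and whose activity is limited by the NAB corepressors. MYC pairs with MAX on E-box elements and raises genes of ribosome biogenesis and metabolism, and it is an established IL-4-responsive gene of alternatively activated macrophages. IL-4 signals in these cells through its receptor, JAK kinases and STAT6.

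The promoter windows of Egr2 and Klf4, which were higher with IL-4 in both genotypes, are shown here beside that of Klf6, the KLF gene with the highest level, which was not. Each sequence is the 250 bases before the annotated start in RefSeq (GRCm38.p6, the build of the deposited tables), written along the gene's strand. The windows are chr10:67537619-67537868 on the plus strand for Egr2 (the start of the transcript counted in the tables), chr4:55532476-55532725 on the minus strand for Klf4 and chr13:5861239-5861488 on the plus strand for Klf6. Capitals mark matches to any of the 8 motifs named next.
Egr2: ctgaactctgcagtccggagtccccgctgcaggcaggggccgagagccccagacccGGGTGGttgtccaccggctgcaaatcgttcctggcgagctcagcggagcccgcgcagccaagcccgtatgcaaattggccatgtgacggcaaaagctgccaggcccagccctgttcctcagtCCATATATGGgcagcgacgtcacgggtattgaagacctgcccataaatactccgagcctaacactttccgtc
Klf4: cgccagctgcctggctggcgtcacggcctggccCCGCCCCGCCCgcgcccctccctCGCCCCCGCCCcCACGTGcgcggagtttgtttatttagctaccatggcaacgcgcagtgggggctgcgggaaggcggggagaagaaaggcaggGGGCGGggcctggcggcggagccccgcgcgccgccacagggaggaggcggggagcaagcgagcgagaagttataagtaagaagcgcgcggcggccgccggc
Klf6: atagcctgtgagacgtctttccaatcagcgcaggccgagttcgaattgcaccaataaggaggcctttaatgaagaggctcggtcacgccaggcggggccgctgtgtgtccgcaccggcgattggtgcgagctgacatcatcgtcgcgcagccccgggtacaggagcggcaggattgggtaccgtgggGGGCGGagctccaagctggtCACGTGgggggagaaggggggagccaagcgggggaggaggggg

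The motifs were searched on both strands. They were the STAT6-type site TTCNNNNGAA, the STAT site TTCNNNGAA, the CArG box, the E-box CACGTG, the cyclic AMP element TGACGTCA, the EGR site GCGGGGGCG, the GC box GGGCGG and the CACCC box CCACCC. The promoter table held 5 of the 9 genes for this search (Klf2, Klf3, Klf4, Klf6 and Egr2). The Egr2 window held a CArG box from 72 to 63 bases before the start, and 1.47% of all 32851 windows of the same length held one. The Klf4 window held an E-box from 182 to 177 bases before the start, and the Klf6 window held one from 43 to 38 bases before it, against 6.02% of all windows. The EGR site was found in Klf2, Klf3 and Klf4, against 2.57% of all windows, and in each of them it overlapped a GC box. These windows were 71.2%, 78.4% and 74.0% G and C. The shares over all windows are not matched for G and C content. The GC box was found in Klf2, Klf3, Klf4 and Klf6, against 32.7% of all windows. The CACCC box was found in Klf2, Klf3 and Egr2, against 28.1%. None of the 5 windows held either STAT motif (5.85% of all windows held the STAT6-type site and 7.02% the other) or the cyclic AMP element (1.55%). These matches describe letters in these windows only.

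**Figure D1:**
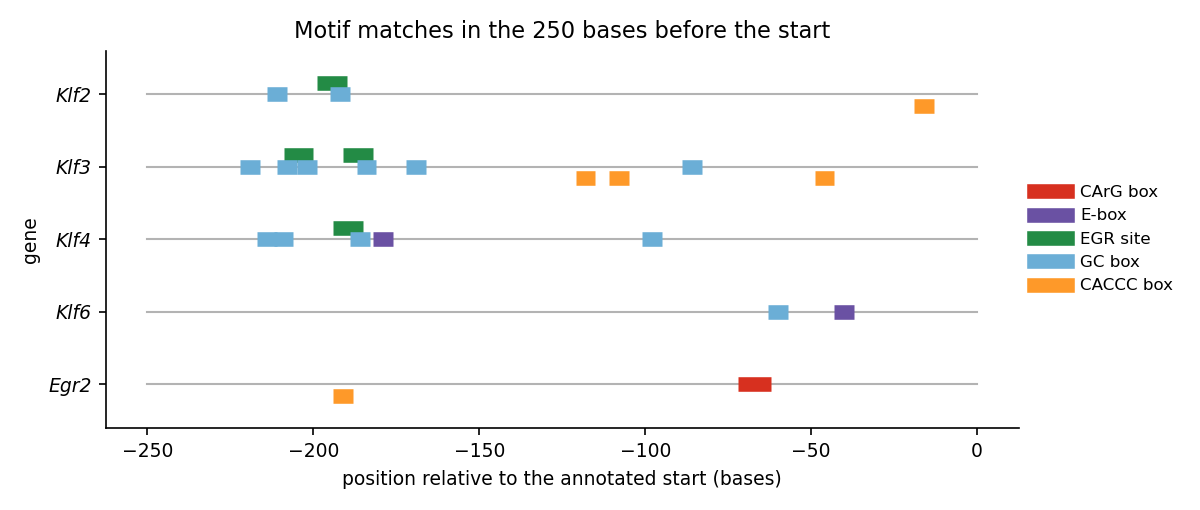
Motif matches in the 250 bases before the annotated start of the 5 genes with a promoter sequence. The horizontal axis is the distance from the start in bases, each grey line is 1 gene, and each coloured bar is 1 match. The CArG box of Egr2 and the E-boxes of Klf4 and Klf6 each occur once, and GC boxes are most frequent in Klf3.

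The levels of the 9 genes ran from Egr3, near the detection floor, to Klf6 and Egr2. FPKM is a level per length, so genes can be set side by side on it. In both untreated libraries Klf6 was the highest and Egr2 came next, followed by Klf3 and Klf10. In both IL-4 libraries Egr2 was the highest and Klf6 came next. The counting intervals (95%, exact Poisson) of these highest 2 genes did not overlap in any library. In wild-type untreated cells the intervals of Klf2 and Klf4 overlapped, and so did those of Klf4 and Myc. In wild-type IL-4 cells Klf3, Klf4, Myc and Klf10 formed a run of neighbours with overlapping intervals, between 13.9 and 10.4 FPKM. In KO untreated cells only Klf4 and Klf2 overlapped as neighbours. In KO IL-4 cells the overlapping neighbours were Klf3 and Klf4, Klf10 and Myc, and Klf2 and Egr1.

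**Figure D2:**
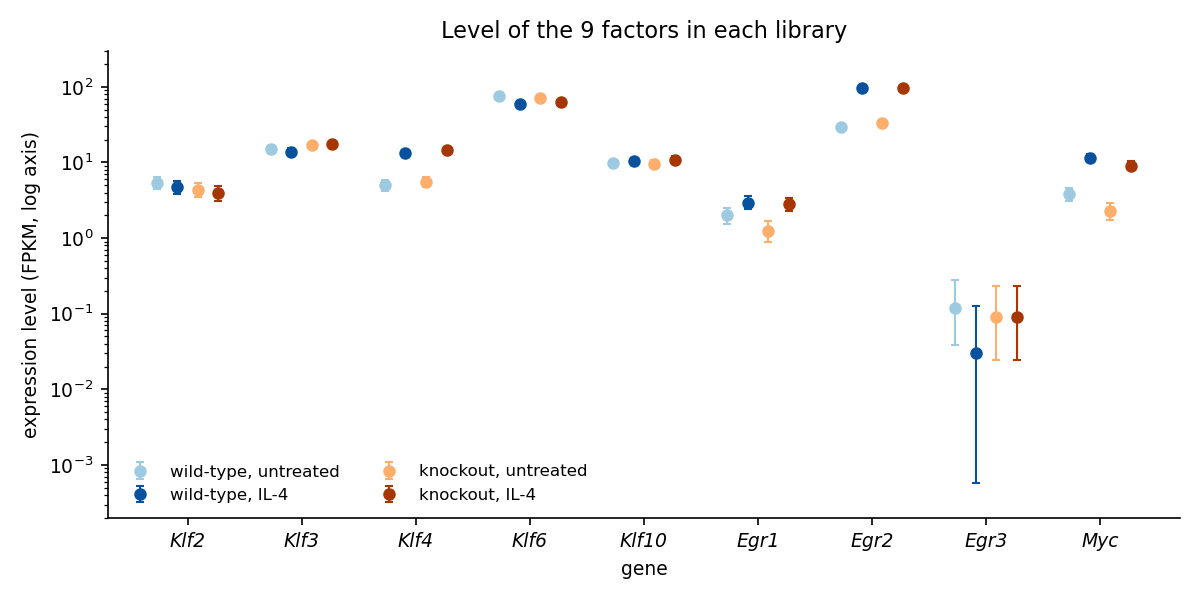
Level of each gene in each of the 4 libraries, in FPKM on a log axis, with bars for the 95% Poisson counting interval. Egr2, Klf4 and Myc sit higher in both IL-4 libraries than in both untreated libraries, Klf6 sits slightly lower, and Egr3 stays at 0.03 to 0.12 FPKM.

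To ask which of these factors respond to IL-4, the treated and untreated libraries of each genotype were compared. Egr2, Klf4 and Myc were called higher with IL-4 in both genotypes, by 2.62- to 3.90-fold, and Egr1 was called higher in the KO. Egr1 in wild-type (1.45-fold higher) and Klf6, slightly lower in both genotypes, passed the test but not the fold threshold. Klf2, Klf3, Klf10 and Egr3 did not pass the test. Calls required an adjusted p under 0.05 (two-sided Fisher's exact test on reads, adjusted over all genes with a read) together with a difference over 1.5-fold, taken after adding 0.1 to each FPKM, so that the folds of low genes are understated. By this rule 3 of the 9 genes were called higher in wild-type, where 4.91% of 15593 genes were, and 0 were called lower, where 7.88% of all genes were. In the KO 4 of the 9 were called higher, against 5.29% of 15738 genes, and 0 lower, against 4.03%. With 9 genes chosen for their families, these counts describe the list and not factors in general. The list was also chosen with earlier results of these data known.

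Egr2 (Krox20) is a zinc finger activator of the immediate early class that is also known in macrophage differentiation and alternative activation. It was listed at 29.4 FPKM in wild-type untreated, 95.8 in wild-type IL-4, 32.9 in KO untreated and 96.3 in KO IL-4 cells, on 970, 3225, 1085 and 3173 reads. Both IL-4 libraries lay near 96 FPKM and both untreated libraries were at or below 32.9 FPKM. The log2 ratio was 1.70 ± 0.05 (counting SE) in wild-type (3.25-fold, Fisher's exact test, adjusted p = 3.75e-268) and 1.55 ± 0.05 in the KO (2.92-fold, adjusted p = 2.93e-232). The wild-type IL-4 count was not whole before rounding, as happens where RSEM, the counting program, finds reads that match several genes. Egr2 was at 0.394 times the level of Klf6 in wild-type untreated and 1.61 times in wild-type IL-4 cells, and at 0.458 and 1.54 times in the KO, so the order of these genes was inverted with IL-4 in both genotypes.

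Klf4, a zinc finger factor known in monocyte differentiation and in alternative activation, was listed at 4.98 FPKM in wild-type untreated, 13.2 in wild-type IL-4, 5.48 in KO untreated and 14.5 in KO IL-4 cells. These levels rested on 169, 458, 186 and 492 reads, and the counting intervals of the untreated libraries did not overlap those of the IL-4 libraries. The log2 ratio was 1.39 ± 0.13 in wild-type (2.62-fold, Fisher's exact test, adjusted p = 3.21e-29) and 1.39 ± 0.12 in the KO (2.62-fold, adjusted p = 1.85e-31). Its relative Klf2, known for keeping monocytes and T cells quiescent, went from 5.40 to 4.71 FPKM in wild-type and in the KO from 4.35 to 3.91 FPKM. The ratio of Klf4 to Klf2 was 0.922 in wild-type untreated cells (95% counting interval, 0.724 to 1.17) and 2.81 with IL-4 (2.25 to 3.50). In the KO it was 1.26 without IL-4 (0.977 to 1.63) and 3.71 with it (2.92 to 4.72). When a biological coefficient of variation of 0.2 was assumed on top of counting error, Klf4 lost its call in both genotypes (edgeR exact test, adjusted p = 0.0549 and 0.0703).

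Myc was listed at 3.84 FPKM in wild-type untreated, 11.6 in wild-type IL-4, 2.26 in KO untreated and 9.10 in KO IL-4 cells, on 102, 313, 60 and 241 reads. The 4 counting intervals did not overlap between untreated and IL-4 libraries. The log2 ratio was 1.57 ± 0.16 in wild-type (2.96-fold, Fisher's exact test, adjusted p = 6.16e-24) and 1.96 ± 0.21 in the KO (3.90-fold, adjusted p = 1.24e-25). Egr1, the founding factor of its family and a widely used readout of MAP kinase signalling, was low throughout, at 1.99, 2.93, 1.23 and 2.79 FPKM in the same order, on 68, 102, 42 and 95 reads. Its log2 ratio was 0.54 ± 0.23 in wild-type (1.45-fold, Fisher's exact test, adjusted p = 0.0437), which missed the fold threshold, and 1.12 ± 0.27 in the KO (2.17-fold, adjusted p = 4.07e-05). Egr2 was 14.8 times as abundant as Egr1 in wild-type untreated cells and 32.7 times with IL-4, and 26.8 and 34.5 times in the KO. With an assumed coefficient of variation of 0.2 the Egr1 call in the KO was lost (edgeR exact test, adjusted p = 0.478), whereas those of Egr2 and Myc were kept in both genotypes.

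**Figure D3:**
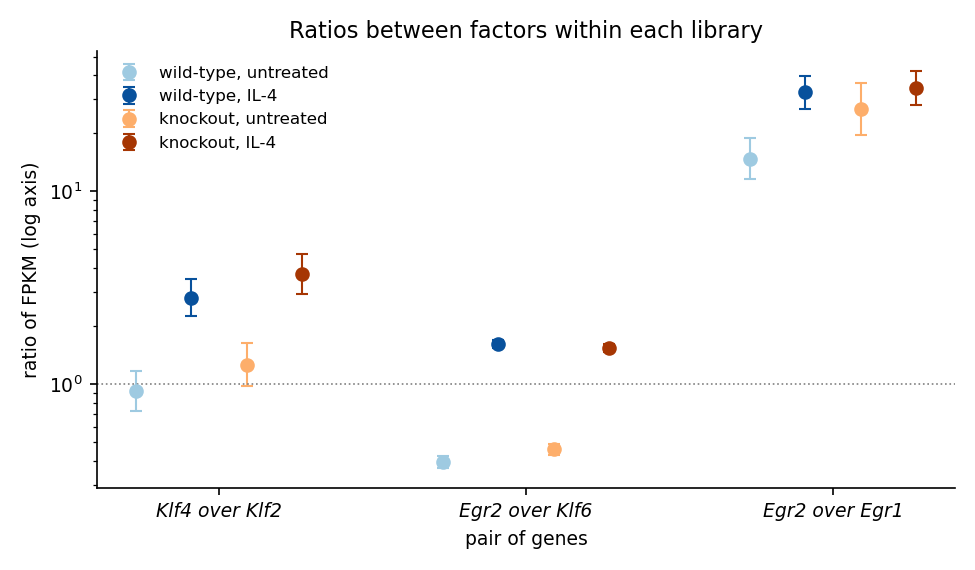
Ratios of FPKM between pairs of the factors within each library, on a log axis, with 95% counting intervals. The dotted line marks equal levels. Klf4 over Klf2 and Egr2 over Klf6 lie above 1 in both IL-4 libraries, and Egr2 exceeds Egr1 in all 4 libraries.

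The other KLF genes of the list stayed within 1.5-fold with IL-4 in both genotypes. Klf6, an abundant early response KLF, was at 74.7 FPKM in wild-type untreated, 59.4 in wild-type IL-4, 71.9 in KO untreated and 62.5 in KO IL-4 cells. Its log2 ratio was -0.33 ± 0.04 in wild-type (Fisher's exact test, adjusted p = 2.26e-18) and -0.20 ± 0.04 in the KO (adjusted p = 2.97e-07). Klf3, a repressor of the family that acts through CtBP, was at 15.0, 13.9, 16.8 and 17.3 FPKM in the same order of libraries. Klf10, a gene induced by TGF-beta in many cells, was at 9.73, 10.4, 9.62 and 10.9 FPKM, and its highest level was 1.13 times its lowest. For Klf3 and Klf10 the 95% counting intervals of the log2 ratio with IL-4 lay between -0.31 and 0.39 in both genotypes, and for Klf2 between -0.59 and 0.29. Egr3, which is known from T cells and muscle spindles, was listed at 0.12, 0.03, 0.09 and 0.09 FPKM on 5, 1, 4 and 4 reads. At this depth a change of Egr3 was not detectable, with an interval of the log2 ratio from -3.36 to 1.85 in wild-type.

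**Figure D4:**
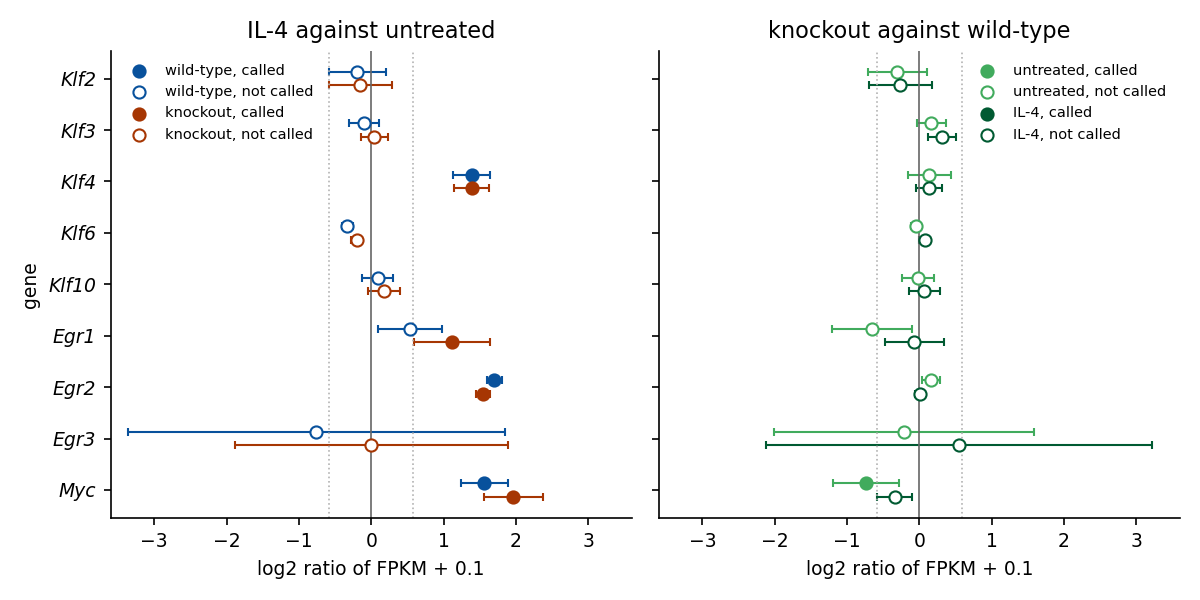
Log2 ratios of FPKM + 0.1 with 95% counting intervals for the 9 genes, for IL-4 against untreated (left) and KO against wild-type (right). Filled points are called genes and dotted lines mark 1.5-fold. Egr2, Klf4 and Myc are filled on the left for both genotypes, and Myc in untreated cells is the only filled point on the right.

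The 2 genotypes were also used together in an additive edgeR fit of genotype and treatment, which takes the IL-4 response as equal in both and leaves 1 residual degree of freedom. Of the 8 genes that passed its filter on low counts (Egr3 did not), 4 were called higher with IL-4 at an adjusted p under 0.05, where 12.0% of 11791 genes were, and 1 lower, where 13.3% were. Egr2 had a log2 effect of 1.64 (adjusted p = 9.71e-09), Myc of 1.78 (adjusted p = 6.11e-07) and Klf4 of 1.42 (adjusted p = 4.31e-07). Egr1 had a log2 effect of 0.85 (adjusted p = 0.00895), and Klf6 was the gene called lower, with a log2 effect of -0.26 (adjusted p = 0.0415). This fit sets no minimum on the fold. The calls for Egr1 and Klf6 did not hold with DESeq2 in place of edgeR (adjusted p = 0.246 and 0.181).

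To ask whether loss of Trim24 alters these factors, KO and wild-type libraries were compared at each treatment. Myc was the only gene of the 9 called, lower in untreated KO cells, and no gene was called in IL-4-treated cells. In untreated cells 1 of 9 genes was called lower, where 0.742% of 15623 genes were, and 0 higher, where 0.839% were. In IL-4-treated cells 0 of 9 were called higher, where 3.05% of 15573 genes were, and 0 lower, where 0.764% were. The log2 ratio of Myc was -0.74 ± 0.23 in untreated cells (1.67-fold lower, adjusted p = 0.0231 by Fisher's exact test) and -0.34 ± 0.12 with IL-4 (1.27-fold lower, adjusted p = 0.0286, under the fold threshold). The Myc call in untreated cells rests on 60 against 102 reads and was lost when a biological coefficient of variation of 0.2 was assumed (edgeR exact test, adjusted p = 1.0) and with a pseudocount of 1 (log2 ratio, -0.57). Egr1 had a log2 ratio of -0.65 ± 0.28 in untreated cells (adjusted p = 0.156 by Fisher's exact test) and -0.07 ± 0.21 with IL-4.

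Leaving out Egr3, whose few reads give no usable ratio, the 6 other genes differed between genotypes by 1.24-fold at most in either treatment. Klf3 had a log2 ratio of 0.31 ± 0.10 in IL-4-treated cells (1.24-fold, Fisher's exact test, adjusted p = 0.0141), under the fold threshold, and 0.16 ± 0.10 in untreated cells. Klf4, which was higher with IL-4 in both genotypes, had log2 ratios between genotypes of 0.14 ± 0.15 untreated and 0.13 ± 0.09 with IL-4. The ratios of Egr2 were 0.16 ± 0.06 and 0.01 ± 0.04. In the additive edgeR fit 0 of 8 genes were called for genotype, where 1.66% of 11791 genes were called in either direction. At an unadjusted p under 0.05 the edgeR test left 2 of the 8, where 14.2% of all genes were. Myc had a log2 effect of -0.48 (adjusted p = 0.127) and Klf3 of 0.24 (adjusted p = 0.325). With the length trend as an offset in the edgeR fit, Myc was called lower in the KO (log2 effect, -0.44, adjusted p = 0.0240). That offset also raised the genotype calls over all 11791 genes from 196 to 624, so more genes of every kind were called.

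Markers of mesothelial cells and fibroblasts moved with the genotype of the untreated cells. All 9 were listed in at least 1 library, and their summed level was 48.6 FPKM in wild-type untreated, 41.3 in wild-type IL-4, 24.8 in KO untreated and 45.6 in KO IL-4 cells. In untreated KO cells 5 of the 9 (Col1a1, Col1a2, Col3a1, Dcn and Pdgfra) were called lower and 0 higher, where 0.742% and 0.839% of 15623 genes were. The library with the lowest sum is the one where Myc and Egr1 were lowest. With IL-4 in the KO 3 of the 9 (Krt19, Col1a1 and Col1a2) were called higher, where 5.29% of 15738 genes were. Among defining markers, Msln was at 0.08 to 0.55 FPKM, Upk3b at 0.13 to 0.58 FPKM and Lum at 0 to 0.09 FPKM. The log2 ratio of Myc between genotypes was also below 0 with IL-4 (-0.34), where the sums of the 2 genotypes were closer. Single markers moved in opposite directions in that comparison, so the closer sums do not show equal content of these cells. In KO cells Msln (log2 ratio, 1.85) and Col1a1 (0.85) were called higher, and Dcn (-0.60) lower. Wt1, a mesothelial marker outside this list, was also called lower (-1.35). Among markers averaging 1 FPKM or more, removal of the length trend left 1 called higher and 0 lower. Mast cell markers, of which 5 of 6 were listed, summed to 4.75, 3.63, 9.12 and 5.64 FPKM in the same order. Beside the genes above, the markers called between untreated genotypes were Cma1 (mast cell, log2 ratio, 1.91), Prg4 (resident macrophage, -0.71) and Lyz2 (-1.12). Between IL-4-treated genotypes Lyz2 (-1.18), Prg4 (-0.59) and Gata6 (resident macrophage, -0.79) were called lower in the KO. Cpa3 (mast cell, 1.21), Mertk (macrophage, 0.60) and Vwf (endothelial, 0.61) were called higher there. The calls of Mertk and Vwf ended when the length trend was removed. B cell markers (6 of 7 listed) summed to between 4.23 and 6.55 FPKM, T and NK cell markers (8 of 9) to between 1.78 and 3.03, neutrophil markers (3 of 8) to between 9.39 and 14.0 and endothelial markers (4 of 6) to between 11.6 and 16.9. Eosinophil (4 of 5), dendritic cell (7 of 7) and resident peritoneal macrophage markers (7 of 7) summed to between 1.06 and 2.04, between 2.75 and 2.91 and between 8.95 and 13.9 FPKM. The part of these cells in the Myc and Egr1 values of either comparison was not tested.

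The IL-4 responses of the genotypes were compared directly by an exact conditional test of the 4 counts, and 0 of the 9 genes were called, where 2.53% of 13408 genes were. The smallest adjusted p was that of Klf6, with a difference of log2 responses (KO minus wild-type) of 0.13 (95% counting interval, 0.03 to 0.23, adjusted p = 0.107 by the exact conditional test). With the length trend removed the Klf6 difference was 0.01 (adjusted p = 0.947), and the calls over all genes went from 339 to 101. Without that removal the difference was 0.61 for Egr1 (-0.07 to 1.30) and 0.41 for Myc (-0.11 to 0.93), both toward a larger response in the KO but with intervals that hold 0. It was -0.16 for Egr2 (-0.30 to -0.01) and -0.01 for Klf4 (-0.36 to 0.35). The adjusted p-values of these 4 genes lay between 0.190 and 1.0 by the exact conditional test. That Egr1 passed the threshold in the KO and not in wild-type is therefore not shown to be a difference between genotypes. At an unadjusted p under 0.05 there were 2 of the 9, Klf6 and Egr2, where 20.2% of all genes tested were, so this count was near the background.

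Other KLF and SP genes were examined as the relatives of the 5 KLF members. Of the 21 named, 16 had a read in the wild-type pair and 17 in the KO pair. With IL-4, 1 was called higher and 3 lower in wild-type, and 1 higher and 2 lower in the KO. The shares over all genes were 4.91% higher and 7.88% lower in wild-type, and 5.29% and 4.03% in the KO. The median log2 ratio of the 10 with a mean of at least 1 FPKM was -0.19 in wild-type and -0.17 in the KO, beside -0.01 and 0.01 for all genes at that level. With the length trend removed these medians were -0.11 and -0.06, and 1 gene was called higher and 1 lower in each genotype. Klf9, a glucocorticoid-responsive member, was called higher in both, from 12.0 to 20.3 FPKM in wild-type (1.69-fold) and from 13.6 to 31.5 FPKM in the KO (2.31-fold). With IL-4 it was also called higher in KO than in wild-type cells (1.55-fold, Fisher's exact test, adjusted p = 2.57e-19).

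Klf7 was called lower in both genotypes, from 3.54 to 2.0 FPKM in wild-type and in the KO from 3.81 to 1.98 FPKM. Klf8 was called lower in both as well, from 1.13 to 0.61 FPKM and from 1.57 to 0.97 FPKM, but not after removal of the length trend. Klf13 was called lower in wild-type and not in the KO, from 16.3 to 8.99 FPKM (log2 ratio, -0.85), with 18.0 and 16.03 FPKM in the KO. With IL-4 it was called higher in KO than in wild-type cells (1.77-fold, Fisher's exact test, adjusted p = 3.28e-31). That makes 2 of the 17 relatives with a read called higher in that comparison, Klf9 and Klf13, where 3.05% of 15573 genes were. Between untreated genotypes 0 of 16 were called, where 0.839% of 15623 genes were called higher and 0.742% lower. Both Klf13 calls ended when the length trend was removed (log2 ratio with IL-4 in wild-type, -0.52, and 1.46-fold between genotypes with IL-4). Sp3, a ubiquitous GC box factor, stayed between 18.0 and 20.1 FPKM.

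The EGR relatives and corepressors were Egr4, Nab1, Nab2 and Wt1, of which 3 had a read. Nab2, a corepressor that binds EGR proteins and is itself known as an EGR target, was at 15.5 FPKM in wild-type untreated, 26.7 in wild-type IL-4, 19.2 in KO untreated and 28.6 in KO IL-4 cells. It was called higher in wild-type (1.72-fold, Fisher's exact test, adjusted p = 3.21e-19), and its ratio in the KO was 1.49-fold. Nab1, the other corepressor, was at 14.6, 9.27, 12.0 and 9.34 FPKM and was called lower in wild-type (log2 ratio, -0.65), though not after removal of the length trend. Wt1, an EGR-like factor that also marks mesothelial cells, was at 1.98, 1.86, 0.90 and 0.67 FPKM. Wt1 was called lower in the KO without IL-4 (log2 ratio, -1.06) and with it (log2 ratio, -1.35).

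None of the 13 MYC network partners (MAX, the MXD repressors, MNT, MGA and the MLX group) was called with IL-4 in either genotype. The shares over all genes were 4.91% higher and 7.88% lower in wild-type, and 5.29% and 4.03% in the KO. Max, the obligate partner of MYC, was at 53.6 FPKM in wild-type untreated, 62.0 in wild-type IL-4, 53.4 in KO untreated and 54.8 in KO IL-4 cells. Mnt, a repressor that competes with MYC for MAX, was at 32.4, 22.8, 32.7 and 29.8 FPKM. Mxd3, a repressor of the same kind, stayed between 24.1 and 26.6 FPKM. Between genotypes 1 partner was called, Mlxip (named after its values were seen), higher in the KO with IL-4, and not after removal of the length trend. In that comparison 3.05% of all genes were called higher and 0.764% lower, and between untreated genotypes 0.839% and 0.742%.

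A list of 40 genes known as MYC targets, mostly of ribosome biogenesis and metabolism, was described next. With IL-4, 11 were called higher and 0 lower in wild-type, and 5 higher and 0 lower in the KO, where 4.91% and 5.29% of all genes were called higher. Of the 39 that averaged 1 FPKM or more, 11 and 4 were called higher, and 6 and 3 were when the length trend was removed. The 5 called in the KO were Tfrc, Rrs1, Apex1, Ldha and Ccnd2, the last named after its values were seen. In each genotype 36 of the 40 had a log2 ratio above 0, as did 45.2% of all genes in wild-type and 49.0% in the KO. The median log2 ratio of the 39 with a mean of at least 1 FPKM was 0.37 in wild-type and 0.27 in the KO, beside -0.01 and 0.01 for all genes, and it was 0.40 and 0.27 after removal of the length trend. Tfrc, the transferrin receptor, was called higher in both, from 39.1 to 163 FPKM in wild-type (4.17-fold) and from 54.3 to 192 FPKM in the KO (3.52-fold).

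Rrs1, a ribosome assembly factor, rose from 16.3 to 29.6 FPKM in wild-type and in the KO from 14.0 to 29.5 FPKM. Apex1, a DNA repair endonuclease, was at 45.5, 80.7, 38.8 and 72.4 FPKM in the same order of libraries and was called higher with IL-4 in both genotypes. Ldha, a lactate dehydrogenase subunit, was called higher in both (1.51-fold in wild-type), but fell under the fold threshold in both when the length trend was removed. Ptma, the most abundant of the list, was at 514, 545, 447 and 436 FPKM and was not called.

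In KO against wild-type cells 0 of the 40 MYC target genes were called in either treatment. The shares over all genes were 0.839% higher and 0.742% lower untreated, and 3.05% and 0.764% with IL-4. The log2 ratios of the target genes were below 0 for 32 of 40 in untreated cells, where 50.5% of all genes were below 0. They were below 0 for 32 of 40 with IL-4 as well, where 45.1% of all genes were. The medians were -0.14 and -0.18, beside -0.01 and 0.01 for all genes, and -0.11 and -0.15 after removal of the length trend. The IL-4 and genotype comparisons share libraries, so these medians are not independent of each other.

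**Figure D5:**
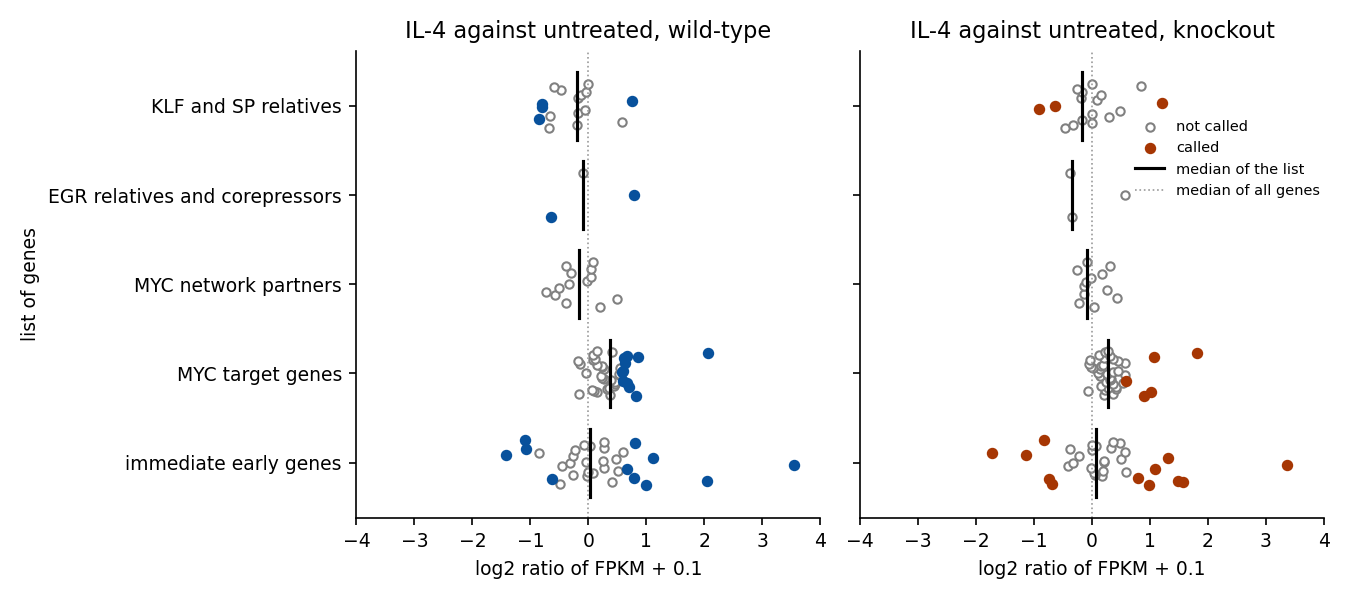
Log2 ratios of FPKM + 0.1 with IL-4 for genes related to the 9 factors, in wild-type (left) and KO (right). Each point is 1 gene with a read in the pair, filled points are called genes, black bars are medians over genes averaging 1 FPKM or more, and the dotted line is the median of all genes. The MYC target list lies to the right in both genotypes, and the immediate early genes lie on both sides.

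Because Egr1, Egr2, Egr3 and Myc are immediate early genes, 32 other genes of that class were examined. With IL-4, 7 were called higher and 4 lower in wild-type, and 7 higher and 5 lower in the KO. Of all genes, 4.91% were called higher and 7.88% lower in wild-type, and 5.29% and 4.03% in the KO. The median log2 ratio of the 25 with a mean of at least 1 FPKM was 0.04 and 0.07. Ier3, an early gene that limits apoptosis, was called higher in both, from 5.07 to 60.3 FPKM in wild-type (11.7-fold) and from 5.16 to 53.9 FPKM in the KO (10.3-fold). Atf3, a stress-induced repressor of inflammatory genes, was at 228 FPKM without and 457 FPKM with IL-4 in wild-type, and at 241 and 479 FPKM in the KO. Maff, a small MAF protein, went from 2.70 to 6.00 FPKM and from 2.28 to 5.79 FPKM, called higher in both.

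Other early genes moved the other way. Zfp36l2, an RNA-decay factor, was called lower in both genotypes, from 93.1 to 43.4 FPKM in wild-type and in the KO from 95.7 to 54.1 FPKM. Nfkbiz, an NF-kappa-B cofactor, was called lower in both, from 2.56 to 0.89 FPKM and from 2.13 to 0.91 FPKM. Ccn2 was called higher in both, but on 1 against 13 reads in wild-type and 4 against 16 in the KO. Jun was at 76.2, 74.6, 72.2 and 83.1 FPKM and Sgk1 at 226, 232, 242 and 253 FPKM, neither of them called. Of the 32 genes, 0 were called between genotypes in untreated cells and 1, the clock gene Per1, was called higher in the KO with IL-4 (3.27 FPKM in wild-type and 6.17 FPKM in the KO). The shares over all genes were 0.839% higher and 0.742% lower untreated, and 3.05% and 0.764% with IL-4, so these counts were near the background. Per1 was named after its values were seen, as were Dusp1, called lower with IL-4 in both genotypes, and Btg2 and Nr4a1, called lower in the KO. In wild-type Per1 was the fourth gene called lower, from 7.02 to 3.27 FPKM.

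Genes whose pattern over the 4 libraries was closest to Klf4, Egr2 and Myc, the members that averaged 5 FPKM or more and had a log2 range of at least 1, were sought among 7458 genes. Likeness was the Euclidean distance between the 4 deviations of log2(FPKM + 0.1) from each gene's own mean. Tbxas1 (distance 0.0647) and Fchsd2 (0.113) were among the 3 closest to Egr2, with Tbxas1 at 16.9, 53.4, 17.8 and 53.2 FPKM. The closest to Klf4 were P2ry1 (0.0758), Ripk2 (0.0809) and Jak2 (0.0880), with Jak2 at 10.1, 26.4, 10.3 and 29.0 FPKM. The closest to Myc were Dusp4 (0.205), Phgdh (0.234) and Ptgir (0.244), with Dusp4 at 3.76, 9.71, 1.83 and 8.31 FPKM. With 4 libraries many genes can share a pattern.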

How the data were processed

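Total RNA of 4 peritoneal macrophage libraries was sequenced by the study on an Illumina HiSeq instrument. The authors used Bowtie against GRCm38 (mm10) for mapping and RSEM for quantification, whose versions are not given in the sources used here, nor is use of strand. The deposited expected counts are the reads RSEM assigned to each gene, of which 22.2% to 22.8% per library were not whole, and were rounded here for tests. The deposited FPKM values divide these counts by length and library total. Unlisted genes were set to 0. Of 16403 gene identifiers, 16365 matched a RefSeq symbol, all 9 members among them.

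Each library's genotype and treatment came from its labels. Pairs were compared by two-sided Fisher's exact test with Benjamini-Hochberg adjustment over genes with a read, and called at an adjusted p under 0.05 and over 1.5-fold on log2(FPKM + 0.1), after the study's thresholds. Responses were compared by an exact conditional test over genes with at least 10 reads, on log2(count + 0.5). The additive model used edgeR 4.0.16 (TMM, filterByExpr, quasi-likelihood test) in R 4.3.3. Alternatives were pseudocounts of 0.01 and 1, a mean of at least 1 FPKM, TMM scaling, a fold of 2, removal of a lowess trend over transcript length (fraction 0.3), an assumed biological coefficient of variation of 0.2, DESeq2 1.42.0, limma 3.58.1 and no filter. The tests were run on simulated counts with known changes, drawn with counting error alone for the pair and response tests. Changes were set only in well-counted genes, so the simulations do not cover changes in genes with few reads. They also do not measure variation between mice. Reads carry no molecular identifiers and are not independent molecules, so intervals cover counting error only.

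The members, the lists of relatives, targets and cell type markers, and the tests were chosen with earlier results of these data known. Genes named from a list were its 3 highest by mean FPKM and up to 6 called in one direction in both IL-4 or both genotype pairs. One gene that the rule on like patterns names is not reported here. Promoter sequences came from RefSeq (GRCm38.p6), and the table held no window used here for Klf10, Egr1, Egr3 and Myc.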

Additional observations from a re-analysis of the deposited data

How the results depend on the processing

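The calls for Egr2 and Myc with IL-4 held in both genotypes under every alternative run on the pairs (pseudocounts of 0.01 and 1, the filter on FPKM, TMM scaling, a fold of 2, removal of the length trend and an assumed biological coefficient of variation of 0.2). That assumed variation lowered the number of the 9 genes called with IL-4 in the KO from 4 to 2 and in wild-type from 3 to 2. The single genotype call, that of Myc in untreated cells, went from 1 to 0 with a pseudocount of 1, with a fold of 2 and with the assumed variation. In the additive fit the 5 IL-4 calls became 3 with DESeq2 and 3 with every gene with a read, and the 0 genotype calls became 1 with the length trend as an offset. With that offset the genotype calls over all genes went from 196 to 624. Small ratios changed sign, or moved off 0 in the case of Egr3, in 5 cases, none of them called. Egr3 with IL-4 in the KO became 0.0027 with TMM scaling and 0.0050 with the length trend removed, and Egr2 between genotypes with IL-4 became -0.014 with TMM scaling. Klf6 between genotypes became -0.038 with IL-4 after the length trend was removed and -0.045 in the additive fit with that trend as an offset. Egr1 with IL-4 in wild-type passed the fold threshold with TMM scaling (log2 ratio, 0.59). Of 39 counts of members called under an alternative, 32 were within 1.5 times the reported count, which includes counts of 0 that stayed 0. Of the matching counts over all genes, 19 were within 1.5 times and 20 were not. No paired analysis was possible because each group holds a single library, and none could be left out. Depth limits Egr3, which had at most 5 reads, and leaves Egr1 with 42 to 102.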
